A study of Mus musculus with 18 samples.

Results

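The miR-30 family was followed through chimeric reads of mouse thymocytes, the developing T cells of the thymus. Its members here were mmu-miR-30a-5p, mmu-miR-30b-5p, mmu-miR-30c-5p, mmu-miR-30d-5p and mmu-miR-30e-5p, taken as every read whose miRNA name was one of these 5. They made up 5 of the 369 miRNAs named in the Ago2 immunoprecipitation (IP) libraries, and 12128 of 411434 reads. In miR-eCLIP, a miRNA is ligated to the RNA it was bound to inside Argonaute 2 (Ago2), so that each chimeric read names a miRNA and gives a position on its target RNA. The wild-type libraries came from C57BL/6 mice and the knockout libraries from B6.Mirc14tm1.1Ankr mice, which lack the Mir181a-1 and Mir181b-1 hairpins. All mice were 6 weeks old, all cells were crosslinked at 254 nm, and no treatment is named. Each genotype had 3 Ago2 IP libraries and 3 libraries further enriched for miR-181. The 6 input samples were not analysed here.

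miR-30 is a conserved family of miRNAs that share a seed, the bases near the 5′ end that pair with target RNAs. Bound miRNAs guide Ago2 and its GW182 partner proteins to messenger RNAs, which are then silenced through loss of translation and decay. Outside the seed the members differ mostly in their 3′ part, where pairing can add to that of the seed. The family is known for regulating GW182 itself, autophagy genes and transcription factors of differentiation.

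The mature sequences are shown because the members share their 5′ part and differ behind it. RefSeq sequences of build GRCm38.p6 were at hand for 3 members, with the seed (bases 2 to 8) in capitals.
mmu-miR-30a-5p: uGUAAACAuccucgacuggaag
mmu-miR-30c-5p: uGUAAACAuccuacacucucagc
mmu-miR-30e-5p: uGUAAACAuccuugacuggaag
The 3 sequences were identical over their first 12 bases. Counted from 1 at the 5′ end, miR-30a and miR-30e differed by a single substitution, C13U. miR-30a and miR-30c differed by C13A, G14C, G18C, G19U and A20C. miR-30c and miR-30e differed by A13U, C14G, C18G, U19G and C20A. The mature miR-30a lies at chr1:23272274-23272295 (plus strand) in the hairpin Mir30a, and miR-30e at chr4:120772660-120772681 (minus strand) in Mir30e. miR-30c comes from both Mir30c-2 (chr1:23291714-23291736, plus strand) and Mir30c-1 (chr4:120769584-120769606, minus strand), and its reads cannot be divided between them. The hairpins lie in pairs, with 19361 nt between Mir30a and Mir30c-2, 2983 nt between Mir30e and Mir30c-1, and 3697 nt between Mir30b and Mir30d on chromosome 15. Members b and c are commonly set apart from a, d and e by their 3′ parts, and the comparison by subgroup below follows that division. How the files told members apart when a read held only part of the miRNA is not given in the sources used here.

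Ago2 IP libraries held between 43983 and 117849 chimeric reads, of which 1105 to 2945 were miR-30 reads. A count of 0 in the smallest library allows up to 3 reads, or 0.271% of its miR-30 reads. Intervals and floors here cover counting error only, since reads that repeat a position need not be separate molecules. miR-181 made up 30.2% to 32.3% of reads in the wild type and 1.33% to 1.45% in the knockout, and the deleted hairpin Mir181a-1 had 545, 379 and 363 reads in the wild type and none in the knockout. For this reason levels are given below as a share of reads outside the miR-181 family. Nothing in the labels says that the 3 libraries of a group came from separate animals, so p-values measure the spread between these libraries, which may be technical. Of the marker genes looked at for the cell types, all 12 for thymocytes had reads of some miRNA (6408 in all), at 146 to 171 per 10000 reads in the wild type and 140 to 155 in the knockout. Thymic epithelium was represented by a single read among 8 genes, with Foxn1, Epcam and Krt5 at 0. The B cell list had 9 reads (0 to 0.424 per 10000 in the wild type, 0 to 0.192 in the knockout), with Ms4a1 at 0. The myeloid list had 17 (0.339 to 0.455 and 0.296 to 0.658), with Cd68 at 0, and the erythroid list 19 (0.424 to 1.01 and 0 to 0.444), with Alas2 at 0. The list for fibroblasts and endothelium had 141 reads, all in Pecam1, at 2.46 to 3.05 per 10000 in the wild type and 3.78 to 4.58 in the knockout, and Col1a1, Pdgfra and Cdh5 were at 0. None of the Pecam1 reads was a miR-30 read.

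The family took a similar share of reads in all 6 libraries. It made up 3.58%, 3.66% and 3.71% of reads outside miR-181 in the wild-type libraries, a mean of 3.65% ± 0.0676 (SD, n = 3). The knockout libraries had 3.75%, 3.45% and 3.46%, a mean of 3.56% ± 0.171 (SD, n = 3). The groups overlapped. As a share of all reads, of which miR-181 holds far fewer in the knockout, it was 2.50%, 2.53% and 2.51% in wild-type and 3.70%, 3.41% and 3.41% in knockout libraries.

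The members differed widely in level, and miR-30c led in all 6 libraries. It had 5583 reads, or 46.3% ± 1.76 of miR-30 reads (SD over n = 6 libraries), as 1351, 781 and 544 reads in wild-type and 1000, 1085 and 822 in knockout libraries. miR-30e followed with 2796 reads (23.1% ± 1.54) and miR-30b with 2417 (19.7% ± 1.48). miR-30d had 1298 (10.7% ± 1.24). miR-30a, which differs from miR-30e by C13U alone, had 34 reads, or 0.272% ± 0.156, as 14, 4 and 4 in wild-type and 8, 1 and 3 in knockout libraries. The order c, e, b, d, a held in 6 of 6 libraries, and still did when repeated reads were counted once. The ratio of neighbours was smallest between e and b, from 1.05 to 1.39, and ranged from 1.76 to 2.19 between c and e and from 1.52 to 2.14 between b and d. Reads of the opposite arms were rare, with 16 of miR-30e-3p, 4 of miR-30c-1-3p and 1 of miR-30b-3p. mmu-miR-384-5p, which has the same seed in RefSeq, had no read.

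**Figure D1:**
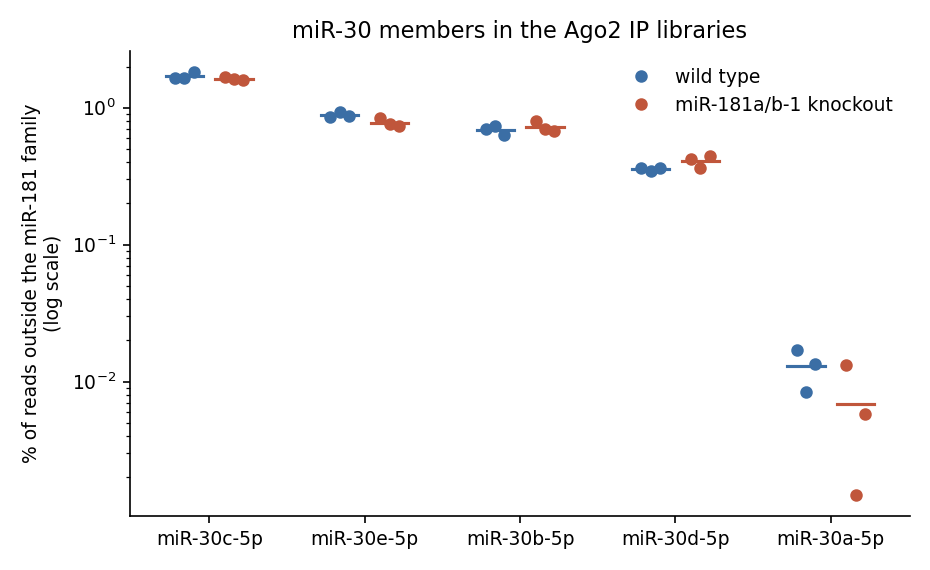
Each point is 1 Ago2 IP library and each line the mean of 3; the vertical axis is the member's share of reads outside the miR-181 family, in percent on a log scale, for wild type (blue) and knockout (red). miR-30c lies near 1.7% in both genotypes and miR-30a at 0.0170% or less, with wild-type and knockout points of miR-30d and miR-30e next to each other but not overlapping. Neither miR-30d nor miR-30e was called.

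No member passed the test for a change in the knockout, and the differences were small. In edgeR's quasi-likelihood test, scaled to miRNAs outside the miR-181 family, 123 miRNAs were tested and 17 were called at a Benjamini-Hochberg adjusted p of at most 0.05, a share of 13.8%, with 7 higher and 10 lower in the knockout. These counts include miR-181 miRNAs, and those of them that were called were all lower in the knockout. Outside the miR-181 family 13 of 118 were called. Over all miRNAs tested, scaling by the reads outside miR-181 without TMM factors gave 8 higher and 5 lower, TMM over all miRNAs gave 4 and 13, and scaling by all chimeric reads 86 and 3. The count of calls was 3 without wild-type library 1, 4 without wild-type library 3, 11 without knockout library 1 and 8 without knockout library 3, and 26 with the replicate block. Of the 4 members tested, none was called, and miR-30a had too few reads to be tested. miR-30e came closest, with -0.22 on the log2 scale (SE 0.07, adjusted p = 0.0539 in edgeR). Its share of reads outside miR-181 was 0.855%, 0.931% and 0.877% in wild-type and 0.845%, 0.756% and 0.732% in knockout libraries, without overlap. With the replicate block, which takes libraries of the same number together, its adjusted p in edgeR was 0.0396, and without knockout library 1 it was 0.0338, so that this call depended on the setting. miR-30d lay on the other side at 0.16 (SE 0.10, adjusted p = 0.299 in edgeR), with shares of 0.363%, 0.346% and 0.363% in wild-type and 0.423%, 0.366% and 0.444% in knockout libraries. Those groups did not overlap either. How many of the 123 miRNAs were without overlap was not counted, and 39 of them had an unadjusted p under 0.05 in edgeR. The lack of overlap is therefore a description and not a sign of change. miR-30c was at -0.09 (SE 0.06, adjusted p = 0.313 in edgeR) and miR-30b at 0.03 (SE 0.09, adjusted p = 0.850 in edgeR), both with overlapping groups. When all chimeric reads served as library sizes, every tested member was higher in the knockout, from 0.33 for miR-30e to 0.71 for miR-30d, against a median of 0.55 over the 117 miRNAs tested that way. Relative to that shift, the order of the members was the same. A share of chimeric reads moves alike with the amount of a miRNA, of its target RNAs and of cells of a type, and in these bulk samples fewer cells and less RNA per cell cannot be told apart.

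**Figure D2:**
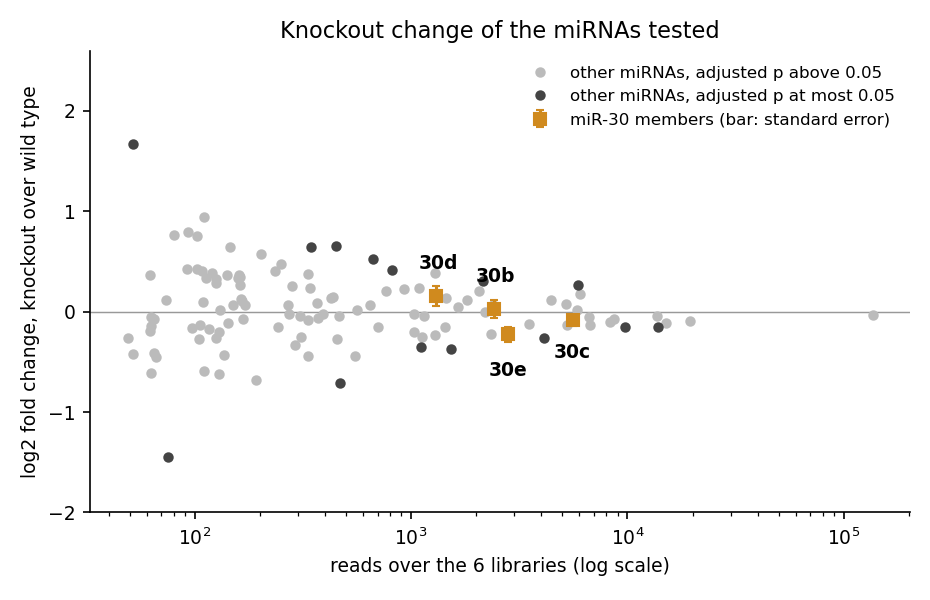
The log2 fold change of knockout over wild type in edgeR is plotted against total reads in the 6 Ago2 IP libraries (log scale) for the miRNAs tested; 3 miR-181 miRNAs below -2 are outside the plotted range. The 4 tested miR-30 members (orange squares, bars are standard errors) lie between -0.22 and 0.16, within the band of other miRNAs (grey). Black points are the called miRNAs, 17 together with those outside the range.

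Among the 97 miRNAs outside the family with at least 100 reads, the 3 whose share followed the family's most closely over the 6 libraries were mmu-miR-16-5p, mmu-let-7d-3p and mmu-miR-142a-3p. Likeness was the root mean square distance of centred log2 shares, which was 0.0329, 0.0347 and 0.0504 for these 3, against a median of 0.207. By the genes their reads fell in, the nearest were mmu-miR-142a-3p, mmu-let-7f-5p and mmu-miR-19b-3p, with cosine similarities of 0.714, 0.615 and 0.577 and a median of 0.290 over the 97. All of these values share the 6 libraries and the same pool of target RNAs, and deeper miRNAs give higher cosines, so they are descriptions without a test.

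miR-30 reads were spread thinly over very many genes. A read was named by the RefSeq gene span that holds its position. Of the 12128 reads, 93.6% received a name, and they fell in 3765 genes, 1885 of which (50.1%) had a single miR-30 read. Only 57 genes had 20 or more. The 20 protein-coding genes with the most reads held 7.67% of the family's reads (6.86% to 8.33% over the libraries). Joined into sites, with neighbouring reads at most 20 nt apart on a strand, the reads formed 9878 sites. Of these, 9044 (91.6%) were a single read, 139 had 5 or more and 14 had 20 or more. The 139 sites held 12% of the reads, and 138 of them had reads from both genotypes. Exon, intron and UTR classes were not assigned, since only gene spans were at hand. By distance, 22.7% ± 1.82 (SD, n = 6 libraries) of reads in genes of known strand lay within 2000 nt of the span's 3′ end, the part of a gene where 3′ UTRs lie. The same share was 22.1% ± 2.42 for miR-29, 21.9% ± 1.18 for miR-181, 21.8% ± 2.0 for miR-26, 18.0% ± 0.488 for let-7 and 21.1% ± 0.285 for the miRNAs of none of these families.

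Rhoh, which encodes a GTPase-like protein that T cell receptor signalling needs, led the protein-coding genes with 90 reads, as 15, 11 and 6 in wild-type and 20, 23 and 15 in knockout libraries. Gigyf1, which represses translation together with a cap-binding protein, had 75, as 21, 11 and 7 and then 12, 10 and 14. Satb1, a chromatin organiser of thymocytes, had 63, and Dock2, an activator of Rac in lymphocytes, had 62. Themis, a signalling protein of thymocyte selection, and Skap1, an adaptor in integrin activation, had 50 each. Tcf7 (the transcription factor TCF-1) and the RNA-binding protein gene Arpp21 had 49 each, and Tcf12, which encodes the E protein HEB, had 47. Lower in the first 20 were Mbnl1 (42, a splicing regulator), Rmnd5a (40, part of a ubiquitin ligase), Ptprc (38, the phosphatase CD45), Jak1 (37, a cytokine receptor kinase), Msl2 (37, of a histone acetyltransferase complex) and Kif5b (36, a kinesin). They were followed by Ssbp2 (34), the kinase gene Camk4 (33), the chromatin remodeller gene Chd1 (33), Tnrc6a (33, which encodes GW182) and Pip4k2a (32), the last tied with Rsrp1.

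Most of these genes also carry many reads of other miRNAs, so the family's share of a gene's reads gives a different ranking. Over all reads outside miR-181 that fell in named genes, miR-30 made up 3.61%, and over the 1569 genes with at least 50 such reads the median share was 2.82%. Of the 27 genes with at least 30 miR-30 reads, Rhoh had the highest share, 41.9% of 215 reads (95% Wilson interval 35.5% to 48.5%). Gigyf1 had 39.7% of 189 (33.0% to 46.8%), and Lmbr1l, a membrane protein gene of lymphocytes, 39.0% of 77 (28.8% to 50.1%). Msl2 had 34.6% of 107 (26.2% to 44.0%), Kif5b 22.2% of 162 (16.5% to 29.2%) and Rmnd5a 18.4% of 217 (13.8% to 24.1%). Chd1 (11.2%), Tcf7 (10.2%), Dock2 (9.38%) and Jak1 (8.81%) completed the first 10. Satb1 and Themis, with 3.27% and 2.87%, were near the overall share, so their many miR-30 reads went with many reads of all miRNAs. Among genes just under that minimum, Ccdc85c had 29 miR-30 reads of 43 (67.4%) and Ccdc71l 27 of 47 (57.4%), named here after their values were seen.

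The 10 sites with the most reads were 2 to 115 nt wide, and most held few reads of other miRNAs. The Rhoh site, at chr5:65880777-65880801 on the plus strand, was 25 nt wide and held 80 of the gene's 90 reads, as 14, 9 and 6 in wild-type and 16, 21 and 14 in knockout libraries. Within 25 nt of it there were 5 reads of other miRNAs outside miR-181. It lay 15899 nt before the 3′ end of the gene span. Repeats of a position made up 28.7% of its reads. The Gigyf1 site (chr5:137527598-137527683, plus strand) held 46 reads, 252 nt before the end of the span, with 8 reads of other miRNAs around it. In Msl2 the site (chr9:101102205-101102297, plus strand) held 34 of 37 reads, with 7 of other miRNAs. In Add3, which encodes an adducin of the membrane skeleton, it (chr19:53199564-53199629, plus strand) held 27 of 28 with 1 other. Ccdc71l had 24 of 27 reads at chr12:32379699-32379713 (plus strand) with 1 other, and Kif5b 29 of 36 at chr18:6203310-6203404 (minus strand) with 11 others. All 29 reads of Ccdc85c lay at 2 neighbouring positions, chr12:108275867-108275868 on the minus strand, near the 5′ end of its span, and 62.1% of them were repeats.

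Other large sites were shared with many other miRNAs. The Tcf7 site (chr11:52253088-52253202, minus strand) held 39 miR-30 reads beside 79 reads of other miRNAs, 48 of them miR-142a-3p. Its miR-30 reads were 10, 4 and 0 in wild-type and 14, 6 and 5 in knockout libraries, so that 1 wild-type library had none. At Jak1 (chr4:101152366-101152443, minus strand, 392 nt before the end of the span) 25 miR-30 reads stood beside 111 others, led by miR-20a-5p (27) and miR-17-5p (19). The remaining site of the first 10, in the noncoding RNA gene Gm4258 (chr1:137958043-137958100, plus strand), held 34 reads beside 13 of other miRNAs, with 2, 0 and 2 reads in wild-type and 13, 11 and 6 in knockout libraries.

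The subgroups of the family did not share all their targets. Of all miR-30 reads, 66.0% were of members b or c, a share between 64.9% and 67.5% in every library. Single genes departed far from it. Each gene with at least 20 miR-30 reads was tested for b and c against a, d and e, with the library as a block. Of 57 genes tested, 18 were called in edgeR, a share of 31.6%, with 13 toward b and c and 5 toward a, d and e. These counts include Mir30d, among the 5, which is the hairpin of miR-30d itself rather than a target gene. Without TMM factors the split was 9 and 6, with 14 genes called both ways, and DESeq2 called 11. The median log2 difference over all 57 was 0.44 with TMM factors and 0.17 without. That median stayed at 0.44 with the 5 genes that lacked one subgroup set at their bound.

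On the side of b and c stood Gigyf1, with 75 of 75 reads, which is at least 12.9-fold more than for a, d and e when their count of 0 is set to 3 reads over the 6 libraries and both are taken relative to the subgroup totals (edgeR adjusted p = 2.09e-11). Rhoh had 88 of 90 reads from b and c, 97.8% (95% Wilson interval 92.3% to 99.4%, edgeR adjusted p = 1.44e-11), with more b and c than a, d and e reads in 6 of 6 libraries. No read at all came from a, d and e at Ccdc85c (29 reads, at least 4.99-fold), at Sin3a (25 reads, in 5 of 6 libraries, at least 4.30-fold), which encodes a corepressor scaffold, and at Itgal (23 reads, at least 3.96-fold), which encodes the alpha chain of the integrin LFA-1. Their adjusted p-values in edgeR were 9.26e-05, 1.41e-04 and 3.41e-04. Rmnd5a had 38 of 40 reads from b and c, Kif5b 34 of 36, and Auh, which encodes an RNA-binding mitochondrial enzyme, 22 of 23. The other 5 genes toward b and c were Rgcc, Taok1, Cmip, Rsrp1 and Tcf12, with 83.0% to 91.3% of reads from b and c. Of these 5, Cmip, Taok1, Rsrp1 and Tcf12 were not called without TMM factors.

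On the side of a, d and e stood 4 protein-coding genes. Add3 had 27 of 28 reads from these members, leaving 3.57% for b and c (95% Wilson interval 0.633% to 17.7%, edgeR adjusted p = 1.0e-06). Ccdc71l had 26 of 27 (3.70% for b and c, 0.657% to 18.3%, edgeR adjusted p = 1.12e-06), and Zkscan3, a zinc finger repressor, 21 of 23 (8.70%, 2.42% to 26.8%, edgeR adjusted p = 4.04e-05). Msl2 had 33 of 37 reads from them, -3.48 on the log2 scale (SE 0.70, adjusted p = 1.17e-05 in edgeR). In Add3, Ccdc71l and Msl2 the a, d and e reads outnumbered those of b and c in 6 of 6 libraries. The fifth call was the Mir30d hairpin itself, with 22 reads, all of miR-30d. Each member with reads at miR-30 hairpins had them only at its own, with 11 at Mir30b, 11 at Mir30c-1 and 9 at Mir30e.

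**Figure D3:**
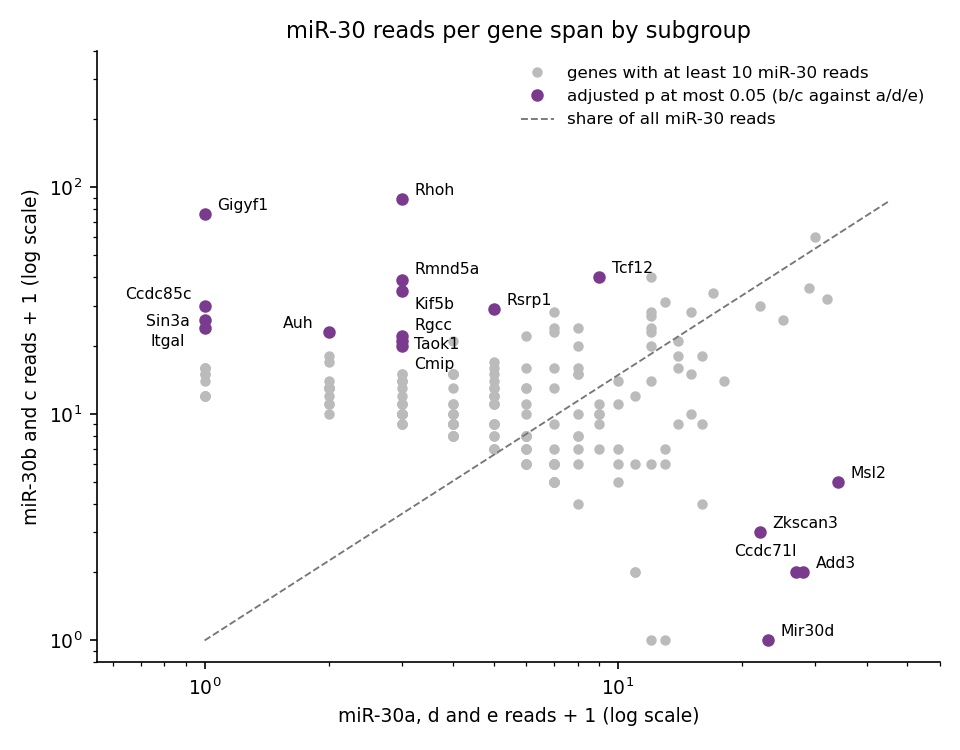
Each point is a gene span with at least 10 miR-30 reads over the 6 Ago2 IP libraries; axes are reads of members a, d and e (horizontal) and of b and c (vertical), each plus 1 on log scales, and the dashed line marks the share among all miR-30 reads. The 18 called genes (purple, named) lie away from the line, with Gigyf1 at 75 and 0 reads and Add3 at 1 and 27.

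Single members stood out within the subgroups too. At Gigyf1, 74 of 75 reads were miR-30c and 1 was miR-30b, whereas Rhoh had 53 of miR-30c and 35 of miR-30b. Ccdc85c had 22 of miR-30b and 7 of miR-30c, against a share of miR-30c of 69.6% among the b and c reads of all named genes. Rgcc, a regulator of the cell cycle, had 21 of miR-30c and none of miR-30b. On the other side, all 33 a, d and e reads of Msl2 were miR-30d, which makes up 31.4% of such reads over all named genes. Add3 had 11 of miR-30d and 16 of miR-30e, and Zkscan3 had 3 of miR-30d, 17 of miR-30e and 1 of miR-30a. Ccdc71l had 5 of miR-30d and 19 of miR-30e, and held 2 of the 34 reads of miR-30a. These differences between single members were seen in the counts and were not tested. With miR-30c set against miR-30e alone, 29 genes could be tested and 6 were called in edgeR, 5 toward miR-30c and 1 toward miR-30e.

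**Figure D4:**
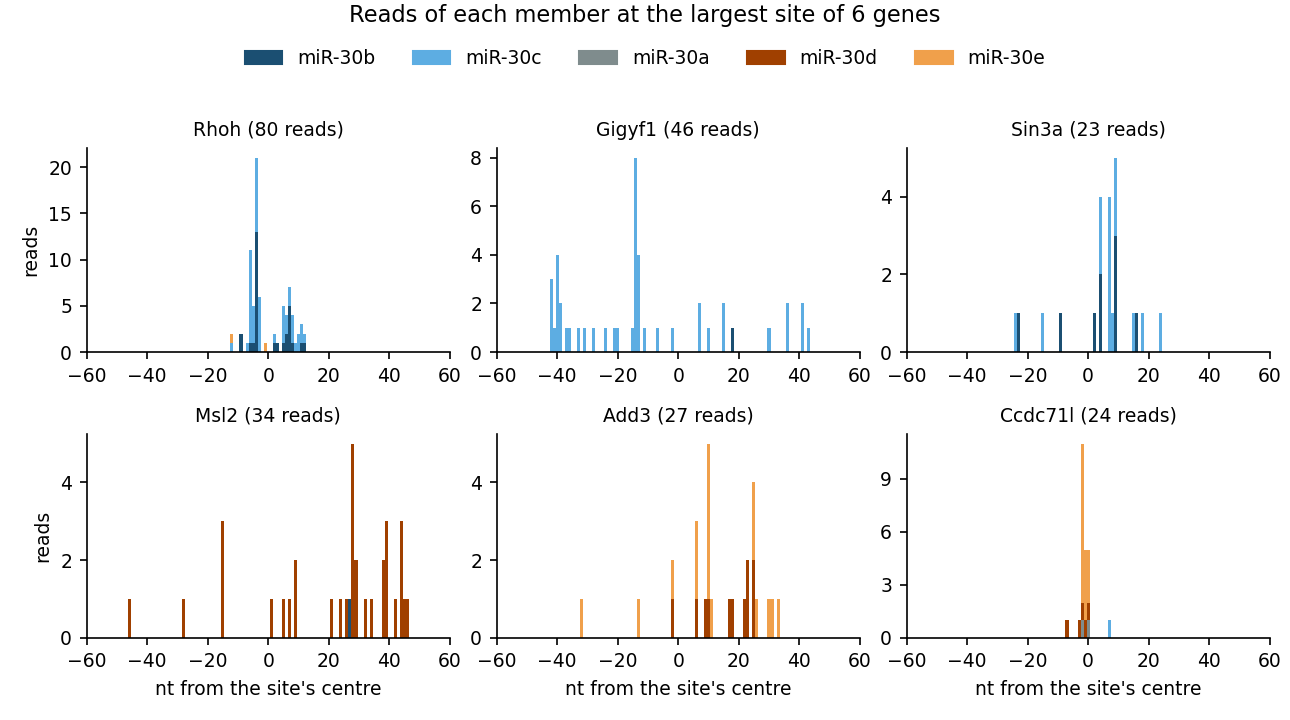
Bars count reads at each position, in nt from the centre of the site in the direction of its strand, at the largest site of 6 genes over the 6 Ago2 IP libraries, coloured by member. The Rhoh, Gigyf1 and Sin3a sites hold almost only b and c reads (blue), the Msl2 site almost only miR-30d (brown), and the Add3 and Ccdc71l sites mostly miR-30d and miR-30e (brown and orange).

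Sites hold the same reads as the genes, so they count this division in another way and give no separate support. Of the 48 sites with at least 10 reads, 20 had at least 90% b and c reads, 7 had at most 10%, and 21 lay between. How many would lie at either end from counting error alone was not worked out. Genes with 1 to 4 reads had, pooled, 65.6% b and c reads, close to the 66.0% of the family. With sites in place of genes, 14 were tested and 10 were called in edgeR, 6 toward b and c and 4 toward a, d and e. Among these 4 was the Mir30d hairpin, where all 22 reads were of miR-30d. Genes with many reads from both subgroups were among the tested ones as well, such as Dock2 with 31 and 31 reads and Satb1 with 35 and 28, neither of which was called (edgeR adjusted p = 0.193 and 0.476).

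Few genes could be tested for a change of their miR-30 reads in the knockout. After a filter on low counts, 6 genes were tested in edgeR, scaled to miR-30 reads, and 2 were called, a share of 33.3%, both higher in the knockout. Among all 57 genes with at least 20 reads, 1 was called, a share of 1.75%. Gm4258 was called under both filters. It had 11, 2 and 6 miR-30 reads in wild-type and 22, 28 and 19 in knockout libraries, 1.77 higher on the log2 scale (SE 0.31, adjusted p = 8.28e-04 in edgeR over the 6 genes). Per 10000 miR-30 reads this was 34.4 ± 21.6 and 109 ± 12 (SD, n = 3 each), without overlap. Its reads of other miRNAs outside miR-181 differed in the same direction, at 30.4 ± 3.68 per 10000 such reads in wild-type and 63.8 ± 4.97 in knockout libraries, a ratio of 2.10. The gene span of Gm4258 (chr1:137898464-137963020, plus strand) ends 3434 nt before Mir181a-1, one of the deleted hairpins, on the same strand. The part of either fact in the miR-30 result was not tested. The call was lost with the replicate block (edgeR adjusted p = 0.0753) and without knockout library 2 or 3 (0.0926 and 0.0863), where the log2 changes were 1.76, 1.65 and 1.74.

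Rhoh was the other call, with 56.1 ± 6.21 reads per 10000 miR-30 reads in wild-type and 91.0 ± 7.92 in knockout libraries (SD, n = 3 each), without overlap. The difference was 0.78 on the log2 scale (SE 0.19, adjusted p = 0.0332 in edgeR). Its reads of other miRNAs did not share this direction, at 4.73 ± 1.35 and 3.35 ± 0.481 per 10000, and those groups overlapped. The call on Rhoh was lost in 12 of 13 alternatives, with adjusted p-values in edgeR or DESeq2 from 0.0428 to 0.555 over the 13, and with the replicate block its adjusted p in edgeR was 0.0753. Its log2 change lay between 0.68 and 0.87 in these 13. The other 4 genes tested were not called. On the log2 scale Gigyf1 was at -0.17 (SE 0.30), Satb1 at -0.06 (SE 0.57), Dock2 at -0.07 (SE 0.51) and Arpp21 at -0.50 (SE 0.91), and changes of the size of these errors were not detectable at this depth.

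**Figure D5:**
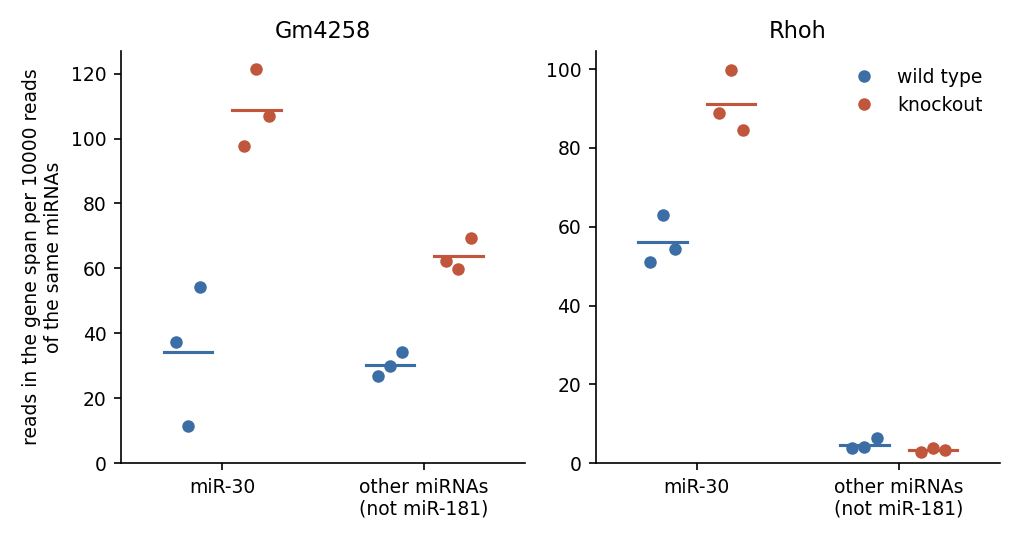
Each point is 1 Ago2 IP library (blue, wild type; red, knockout) and each line the mean of 3; the vertical axes, which start at 0, give reads in the gene span per 10000 reads of the same miRNAs, for miR-30 and for all other miRNAs outside miR-181. For Gm4258 both kinds are higher in the knockout, and for Rhoh only the miR-30 reads are, at 91.0 against 56.1.

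A list of 24 genes published as miR-30 targets in other systems was looked up. It was drawn up with earlier results of these data known, so its share of reads is a description. It held 83 miR-30 reads in 13 of its genes, 7.61% of its 1091 reads outside miR-181. Over its 6 genes with at least 50 such reads the median share was 5.53%, beside 2.82% over all 1569 genes of that depth. Most of the reads came from 2 genes. Tnrc6a had 33, as 8, 8 and 4 in wild-type and 4, 4 and 5 in knockout libraries, 7.67% of its reads. Socs1, an inhibitor of cytokine signalling, had 28, as 9, 6 and 1 and then 3, 5 and 4, 20.4% of its 137 reads (95% Wilson interval 14.5% to 28.0%). Neither was called for a knockout change or between the subgroups. The calcineurin genes Ppp3cb, Ppp3r1 and Ppp3ca had 8, 3 and 2 reads and the integrin gene Itgb3 had 2. The autophagy genes Atg5 and Becn1, and Vim, Trp53, Eed, Galnt7 and Smad1, had 1 each. The other 11 had none, among them Snai1, Prdm1, Notch1 and Runx2. Depth limits many of these values, since Becn1, for example, had 7 reads of any miRNA outside miR-181. Among the 6 genes with at least 50 such reads the share still ran from 0% to 20.4%. Notch1 had 0 of 62 and Galnt7 1 of 93 (1.08%), while Socs1 had the highest share.

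In other gene groups miR-30 made up 3.71% to 4.85% of reads outside miR-181, beside 3.61% overall. Genes of the miRNA pathway had 134 miR-30 reads in 13 of 16 genes, 4.63% of their reads and a median of 4.8% over 11 genes, with Tnrc6a, Tnrc6c (17), Tnrc6b (16), Dicer1 (14) and Ago2 (12) ahead. Ago4, Drosha and Dgcr8 had none. Genes of calcium, calcineurin and NFAT signalling had 77 in 9 of 10 genes (4.85%, median 4.14%), led by Camk4 and Nfatc3 (12). Chromatin genes had 116 in 18 of 19 (4.52%, median 3.17%), with Chd1 at 33, Kmt2a at 14 and the Polycomb methyltransferase gene Ezh2 at 10. T cell transcription factors had 328 in 15 of 19 (3.8%, median 3.19%), where Satb1, Tcf7 and Tcf12 were followed by Foxp1 (30), Tox (28) and Lef1 (21). T cell receptor signalling genes had 100 in 12 of 13 (3.71%, median 2.49%), led by Ptprc and Rasgrp1 (17). Ubiquitin ligase genes had 50 in 10 of 12 (3.74%, median 3.39%), led by Cbl (12). Of the list members that could be tested for a knockout change, 0 to 7 in a list, none was called, beside 1 of 57 over all genes (1.75%).

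Against the families miR-26 (miR-26a alone in these libraries), miR-29 and let-7, 9 differences in read features were tested by exact two-sided sign-flip permutation over the 6 libraries, which can give no p below 0.0313. None passed after Benjamini-Hochberg adjustment over the 9. With that floor, a difference can pass only where most of the 9 tests reach it, so not passing does not measure how large a difference is. Repeated positions made up 1.64% ± 0.454 of miR-30 reads, against 3.88% ± 0.685 for miR-26 and 4.41% ± 0.835 for miR-29, lower in 6 of 6 libraries in both cases (exact p = 0.0313, adjusted 0.0703). The difference from let-7 (1.89% ± 0.368) was smaller (exact p = 0.156, adjusted 0.176). The 10 leading genes of each family held 5.14% ± 0.466 of miR-30 reads and 7.93% ± 1.09 of miR-26 reads (exact p = 0.0313, adjusted 0.0703), beside 5.22% ± 0.960 for miR-29 and 5.38% ± 0.218 for let-7. Protein-coding genes took 89.5% ± 1.0 of miR-30 reads, 86.4% ± 1.41 of miR-29 reads (exact p = 0.0313, adjusted 0.0703), 90.5% ± 0.642 of miR-26 reads and 88.9% ± 0.531 of let-7 reads. With repeated reads counted once, the 10-gene difference from miR-26 went from -2.79 to -0.33 percentage points (adjusted exact p = 0.281) and the protein-coding difference from miR-29 from 3.13 to 0.31 (adjusted exact p = 0.938). The families differ in depth. With each thinned to the same number of reads, 6 of the 9 differences had an adjusted exact p of 0.0469, with repeats then higher in miR-30 than in let-7.

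In the libraries enriched for miR-181, miR-30 reads were few. They numbered 149, 101 and 68 in wild-type and 122, 207 and 68 in knockout libraries. As a share of reads outside miR-181 they were 4.15%, 3.88% and 4.30% in wild-type and 3.39%, 3.92% and 3.64% in knockout libraries. The wild-type shares lay above the 3.45% to 3.75% of the Ago2 IP libraries, and the knockout shares around that range. At these depths 3 reads are 1.45% to 4.41% of the miR-30 reads. A site in Tnrc6a, described below, held 33 of the 318 wild-type reads. The share of b and c among all miR-30 reads of an enriched library was 61.4% to 63.2% in the wild type and 61.8% to 69.7% in the knockout.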

How the data were processed

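Chimeric reads were analysed in 12 libraries, 6 of Ago2 IP and 6 enriched for miR-181. The deposited files hold counts: each line is a count of 1 read at a position 1 nt wide, with its miRNA and strand, neither scaled nor pooled by the authors. Which end of a read the position marks is not given in the sources used here. Per the submitters' processing notes, which give neither order nor role, the tools were Bowtie2 2.4.5, SAMtools 1.11, STAR 2.7.10, UMI-tools 1.1.1 and bedtools 2.30.0, and the build GRCm38.p6. Repeated positions were kept.

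Reads were named by RefSeq spans of GRCm38.p6 (a hairpin first, then a single protein-coding span, then a single other span), leaving out spans known to lie on the other strand. The strand was known for 79.9% of protein-coding spans. Counts were tested with edgeR 4.0.16 in R 4.3.3 (quasi-likelihood test; TMM; features kept by filterByExpr at a minimum count of 10; calls at an adjusted p of at most 0.05). The SE of an edgeR result is its absolute log2 change divided by the square root of the test's F statistic. For the 2 subgroups that filter left 0 genes, so genes with at least 20 reads were tested instead, a minimum chosen after seeing the data. The alternatives included DESeq2 1.42.0. Exact tests ran in Python 3.11.15 (scipy 1.17.1). Wilson intervals are at 95%.

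Groups and numbers followed the labels. Libraries with the same number did not deviate together (correlations -0.19, 0.02 and 0.03 over 118 miRNAs), so the numbers were not taken to pair them. Libraries of a group differed beyond sampling noise (chi-square p at most 0.00633).

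By rule, the named miRNAs were the members and the 3 nearest by each measure of likeness, the named genes the 20 with most reads, the 10 with the highest share, those called and the published list, and the named sites the 10 largest. Other miRNAs, genes and sites were named for a comparison or after their values were seen. The members and lists were chosen with earlier results of these data known. Seed matches were not analysed here, for want of a genome. The values of some genes of the lists are not reported here.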

Additional observations from a re-analysis of the deposited data

Results flagged for a closer look

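A site in Tnrc6a, at chr7:123194403-123194462 (plus strand, 834 nt before the end of the gene span), drew attention in libraries that the comparisons above do not use. The 3 wild-type libraries enriched for miR-181 held 33 miR-30 reads there (11, 10 and 12), and the 3 knockout ones held 10 (2, 7 and 1). Per 1000 miR-30 reads this was 116 ± 53.5 and 21.6 ± 10.6 (SD, n = 3 each). In the Ago2 IP libraries the same site held 4, 6 and 3 miR-30 reads in the wild type and 0, 0 and 1 in the knockout, or 2.50 ± 1.05 and 0.188 ± 0.325 per 1000. The groups did not overlap in either kind of library, but how many other sites were without overlap was not counted. In the Ago2 IP libraries the lack of overlap rested on few reads, and a count of 0 allows up to 3. It is therefore a description. miR-181 reads within 25 nt of the site numbered 90 and 10 in the enriched libraries and 11 and 2 in the Ago2 IP libraries (wild type and knockout). Tnrc6a as a whole held 61 of the 715 miR-30 reads of the enriched libraries (8.53%), and Gigyf1, the next gene, 15. The site was singled out after its values were seen and the difference was not tested. The part of the miR-181 reads at the same place was not tested.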

How the results depend on the processing

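The miRNAs called numbered 17, with 11 in DESeq2, 26 with the replicate block, 89 with all chimeric reads as library sizes, and 3 to 13 when 1 library was left out. That range reached 3 without wild-type library 1, 4 without wild-type library 3 and 8 without knockout library 3. With all chimeric reads as library sizes miR-30b, c, d and e had log2 changes of 0.58, 0.47, 0.71 and 0.33, all called. miR-30b, at 0.03, was -0.010 with TMM over all miRNAs and lay between -0.064 and 0.067 when 1 library was left out. miR-30e was -0.22 with the replicate block, where it was called, and -0.30 to -0.19 with 1 library left out. The family's difference of share (knockout minus wild type) was 0.99 percentage points with all reads as the denominator, against -0.095 over reads outside miR-181 (-0.19 to -0.045 with 1 library left out).

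Genes called for a knockout change numbered 2. There was 1 without TMM factors, in DESeq2, without the filter, with repeats counted once and with at least 20 reads, and 0 with sites or the replicate block (2 unadjusted p-values under 0.05 in edgeR with the block, 0 with sites, 1 call in DESeq2). Leaving out 1 library gave 0 to 1. Between the subgroups 18 genes were called, 0 with the filter at a minimum count of 10, which kept none, 10 as sites, 11 in DESeq2, 6 for c against e, and 12 to 18 with 1 library left out (12 without wild-type library 1). Add3, Ccdc71l, Ccdc85c, Gigyf1, Kif5b, Msl2, Rhoh, Rmnd5a and Zkscan3 were called in each alternative that tested them, and none of the 18 changed direction. Ccdc85c, most of whose reads were repeats, was not among the 55 genes tested with repeats counted once.

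With families thinned to equal reads, repeats differed by -2.72, -3.87 and 0.37 percentage points from miR-26, miR-29 and let-7, protein-coding reads by 3.13 and 0.73 from miR-29 and let-7, and the leading 10 genes by -2.77 from miR-26. All 6 had an adjusted exact p of 0.0469. The 10-gene difference from miR-29 lay between -0.40 and 0.31 with 1 library left out. Depth limits the tests per gene, since 57 of 3765 genes had 20 or more reads. The 2 settings meant for seed matches, window and minimum reads, were not run.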

Other observations

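Lmbr1l, Setd7 and Socs1 had large shares of miR-30 reads from both subgroups, at sites near the end of their gene spans. The Lmbr1l site (chr15:98904038-98904079, minus strand) lay 120 nt before the end and held 20 reads, of which 15 were from b and c. The Setd7 site (chr3:51515406-51515438, minus strand) lay 88 nt before the end, with 17 reads, 13 of them from b and c, beside 10 miR-181 reads within 25 nt. Setd7 encodes a lysine methyltransferase. The Socs1 site (chr16:10783852-10783918, minus strand) lay 44 nt before the end, with 14 reads, 7 from b and c, beside 36 reads of other miRNAs, 13 of which were miR-19b-3p. These genes were chosen after their values were seen.

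By cosine similarity of reads per gene, miR-30b and miR-30c were nearest to each other among the 6 pairs of the 4 abundant members (0.643), and miR-30d and miR-30e had 0.466. The pair c and e, of different subgroups, had 0.506. These values rise with depth and were not tested. Reads on the mitochondrial chromosome made up 0.396% of miR-30 reads and 1.23% of reads outside miR-181.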
